A study of Mus musculus with 49 samples.

Results

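Normal multipotent progenitors (MPP) and common myeloid progenitors (CMP) from mouse bone marrow were compared across 12273 of the 38253 genes in the deposited table, those whose mean FPKM over the 6 MPP and 5 CMP samples reached 1. FPKM is the number of sequenced fragments of a gene scaled by its length and by the fragments of the library. The genes with a symbol nearest to the limit were Fcrla, just inside with a mean of 1.45 FPKM in MPP and 0.46 in CMP, and Fau-ps2, just outside with 1.41 and 0.502. The 11 samples were part of a series of 49 samples on how the cell of origin shapes leukaemia driven by the MLL-AF9 fusion, in which 30 samples were normal cells and the rest were leukaemias. All 11 came from wild-type C57BL/6J mice of 6 to 12 weeks, with no transgene, virus or treatment, and the study states that the mice were female and that each sample came from 1 mouse. MPP had been sorted as lineage-negative, Sca-1+, c-Kit+, CD150- and CD34+ cells. CMP had been sorted as lineage-negative, Sca-1-, c-Kit+, CD150-, CD34+ cells with low FcγR, so that Sca-1 was the surface protein on which the gates were opposite. The sorted populations are mixtures of cells, and a mean over such a mixture was measured.

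An MPP still has access to all blood lineages, although it has lost most of the capacity of a stem cell to renew itself. In the classical tree of haematopoiesis it gives rise to a lymphoid branch and to the CMP, from which granulocyte-macrophage progenitors (GMP) and megakaryocyte-erythrocyte progenitors (MEP) descend. The step is governed by transcription factors: GATA1 and KLF1 drive the erythroid programme, GATA1 and its partner FOG1 the megakaryocyte programme, PU.1 and C/EBPα the myeloid one, and HLF, MECOM and the HOXA factors are known from stem and multipotent cells.

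Relative depth, estimated from genes with low values, ran from 0.618 in CMP replicate 4 to 1.21 in CMP replicate 2, with MPP replicate 2 set at 1. The number of genes above 0 ran from 16497 to 17852, and mitochondrial genes took from 12.5% (CMP replicate 5) to 28.2% (CMP replicate 4) of the summed FPKM. The first principal component held 41.6% of the variance and separated the groups, with all MPP at 14.3 or above and all CMP at -21.5 or below. MPP replicate 5 stood apart on the second component, which held 12.5%. No library went against its label on Ly6a, the gene of the surface protein on which the gates were opposite. The study states that more than 1 replicate experiment was pooled, and the labels do not say which sample came from which, so values within an experiment could not be given.

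The transcripts of the sorted surface proteins were checked first. Ly6a, which encodes Sca-1 (chr15:74825308-74828064), ranged in MPP from 94.5 through a median of 109 to 147 FPKM. In CMP replicates 1 to 5 it was at 4.32, 4.95, 7.31, 8.46 and 3.33 FPKM. Every CMP lay far below every MPP, as the sort on this protein sets, so this is a check and not a result. Kit was at 110 ± 13.8 (SD, n = 6) FPKM in MPP and 102 ± 8.38 (SD, n = 5) in CMP. Cd34 was at 227 ± 16.2 in MPP and 137 ± 42.6 in CMP, and the groups did not overlap. Fcgr3, a gene of the FcγR receptors, was at 12.6 ± 5.75 FPKM in MPP and 5.5 ± 2.91 in CMP with overlapping values and a call that held in 9 of 23 alternative fits, while in GMP, which are sorted as FcγR+, it averaged 155 FPKM. Slamf1 encodes CD150, for which both gates were negative. It lay between 0.07 and 0.30 FPKM in MPP and at 3.51, 3.99, 3.80, 2.19 and 3.70 FPKM in CMP replicates 1 to 5. All CMP were above all MPP, a log2 change of 1.91 ± 0.17 (SE; limma, adjusted p = 1.13e-05), and the CMP level was below the 9.10 FPKM of ST-HSC and the 10.9 FPKM of LT-HSC, the populations sorted as CD150+.

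Changes are given below as CMP minus MPP on the scale of log2(FPKM + 1), with their standard error, and understate the change of genes with low values. A gene was called at a Benjamini-Hochberg adjusted p under 0.05 from limma and a change beyond 1 log2 unit, which is 2-fold. On this rule 205 genes were higher in CMP, 1.67% of those tested, and 400 were lower, 3.26%, which is 4.93% in either direction. Without the fold threshold, 1254 genes (10.2%) were higher and 1376 (11.2%) lower at an adjusted p under 0.05. In 132 of the 205 and 339 of the 400 called genes the groups did not overlap, against 763 genes (6.22%) with all CMP above all MPP and 931 (7.59%) with all CMP below among all genes tested. Rises above 3 log2 units were seen in 12 genes and falls beyond 3 in 26. A gene close to 0 in 1 group can pass the filter through the other group alone, and for such a gene only 1 direction could be called. In bulk samples such as these, fewer cells of a type and less RNA per cell cannot be told apart.

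**Figure D1:**
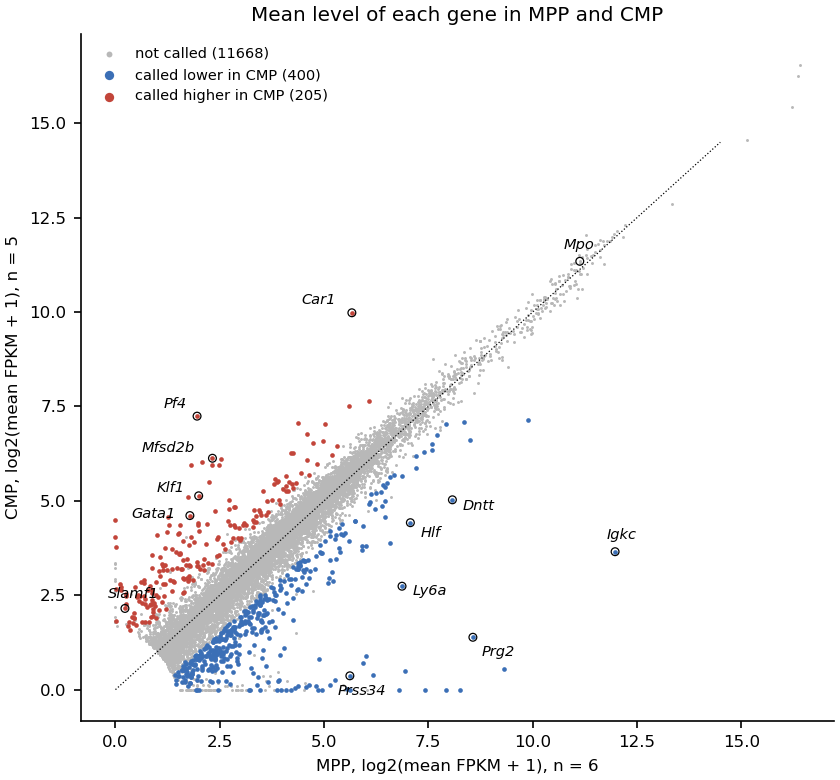
Mean level of each of the 12273 genes in MPP (x axis) and CMP (y axis), as log2(mean FPKM + 1), with 205 genes called higher in CMP in red, 400 called lower in blue and equality as a dotted line. Pf4 and Car1 lie farthest above the line and Igkc and Prg2 far below it, while Mpo lies close to it.

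Of the 15 largest rises from MPP to CMP among named genes with no overlap, 7 were on the erythroid list and 1, the largest, on the megakaryocyte and platelet list. Pf4, which encodes platelet factor 4, a chemokine of megakaryocyte granules (chr5:91201461-91202407), ranged in MPP from 0.33 through 3.10 to 4.53 FPKM. It was at 180, 122, 189, 141 and 120 FPKM in CMP replicates 1 to 5. The lowest CMP was thus far above the highest MPP, and at 5.40 ± 0.31 log2 units this was the largest rise of all genes tested (adjusted p = 7.65e-07). Car1, the carbonic anhydrase of early erythroid cells (chr3:14766217-14778459), ranged in MPP from 9.75 through 36.3 to 103 FPKM and stood at 281, 184, 1126, 918 and 2541 FPKM in CMP. The groups did not overlap, yet CMP replicates 3, 4 and 5 lay well above replicates 1 and 2, and the rise of 4.29 ± 0.75 had a wide error (adjusted p = 0.00175).

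Klf1, the erythroid Krüppel-like factor (chr8:87425827-87429194), went from 0.83, 2.83 and 5.38 FPKM (lowest, median and highest MPP) to 14.6, 13.4, 35.3, 26.4 and 80.8 FPKM in CMP. This was a rise of 3.007 ± 0.46 (adjusted p = 0.000664). Gata1 (chrX:7536386-7555197) ranged in MPP from 1.09 through 1.97 to 5.07 FPKM, and in CMP replicates 1 to 5 it was at 12.9, 11.2, 26.04, 22.4 and 44.5 FPKM. It rose by 2.77 ± 0.35 (adjusted p = 0.000143), and the CMP replicates kept the order seen for Klf1, with replicate 5 highest and replicate 2 lowest. Gata2, which precedes Gata1 in early progenitors, was already at 35.6 ± 5.08 FPKM in MPP and at 73.3 ± 5.32 in CMP, with a rise of 1.03 ± 0.11 that was 0.98 without MPP replicate 6. Zfpm1, the GATA1 partner FOG1, rose by 1.31 ± 0.21 to 39.1 ± 11.5 FPKM, and Gfi1b, a repressor needed in both lineages, by 1.22 ± 0.30 to 52.6 ± 30.6 FPKM. Without CMP replicate 5 Gfi1b was at 0.94, under the fold threshold.

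Of the 36 genes on the erythroid list, 35 were tested and 23 rose, against the 1.67% of all genes tested, while none fell and 12 did not pass. In fits that left out 1 sample, 18 to 23 of the list rose. The median change of the 35 was 1.36, beside 0.03 over all genes tested. Epor, the erythropoietin receptor, ranged in MPP from 0.62 through 1.35 to 2.04 FPKM and was at 9.33, 5.6, 17.7, 15.04 and 37.1 FPKM in CMP, with no overlap and a rise of 2.75 ± 0.37 (adjusted p = 0.000243). Mfsd2b, the transporter that exports sphingosine-1-phosphate from erythroid cells and platelets, was among the steadiest: 2.91, 3.97 and 5.71 FPKM were its lowest, median and highest MPP values, and the CMP were at 52.3, 44.6, 74.0, 74.9 and 98.9 FPKM. Its rise of 3.77 ± 0.19 had an adjusted p of 2.56e-07. Sphk1, the kinase that makes the lipid which Mfsd2b carries, rose by 2.94 ± 0.65, but CMP replicate 2 (4.6 FPKM) lay under the highest MPP (4.83 FPKM).

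Genes of the red cell surface and its membrane skeleton were part of this group. Aqp1, the water channel that carries the Colton antigen, rose by 3.30 ± 0.48 to a mean of 61.1 FPKM, and Ermap, the Scianna antigen, by 3.44 ± 0.60 to 68.5 FPKM. Rhag and Rhd, of the Rh complex, rose by 2.67 ± 0.56 and 2.48 ± 0.57. Ank1, the ankyrin that anchors the membrane skeleton, rose by 2.46 ± 0.48, and the spectrin genes Spna1 and Spnb1 by 1.34 ± 0.37 and 1.42 ± 0.42. Epb4.2, the membrane protein 4.2, rose by 1.21 ± 0.36 (adjusted p = 0.0313). Without CMP replicate 5 the changes of Spna1 (adjusted p = 0.0502), Spnb1 (adjusted p = 0.0716) and Epb4.2 (adjusted p = 0.0769) no longer passed. The same was true of all 3 without CMP replicate 3, of Spnb1 and Epb4.2 without MPP replicate 5 or 6, and of Epb4.2 without MPP replicate 2 or 3.

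The genes of the late erythroid cell behaved otherwise. The globin gene Hbb-b1 was at 47.4, 223 and 755 FPKM (lowest, median and highest MPP) and at 643, 402, 76.8, 73.5 and 191 FPKM in CMP replicates 1 to 5, a change of -0.09 ± 0.71 that did not pass. Hba-a1 (0.40 ± 0.68), Alas2, the erythroid enzyme that starts haem synthesis (-0.02 ± 0.42), and Slc4a1, the anion exchanger band 3 (-0.29 ± 0.58), did not pass either. Within CMP, replicates 1 and 2 held the most Hbb-b1 and the least Klf1. Globin genes share much of their sequence with near copies (44.0% of the 31-base windows of Hbb-b1 and 73.5% of those of Hba-a1), so their split is uncertain. The summed FPKM of the 10 matched erythroblast markers overlapped widely, from 114 to 1559 in MPP and from 211 to 1501 in CMP, and its part in the erythroid result was not tested.

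All 9 haem synthesis genes of the list were tested, and 3 rose, against 1.67% of all genes tested. Cpox, coproporphyrinogen oxidase, rose by 1.78 ± 0.34 from 6.12 ± 1.88 to 27.5 ± 21.6 FPKM, and Alad by 1.12 ± 0.28. The median change of the 9 was 0.82, and 6 passed the adjusted p alone, all higher in CMP, against 10.2% of all genes tested. CMP replicate 5 weighed on this count: without it, Alad was at 0.85, under the fold threshold, and 1 of the 9 was called. Blvrb, which reduces the haem breakdown product biliverdin, rose by 2.40 ± 0.51 to a mean of 132 FPKM, with CMP replicate 5 at 349.

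The megakaryocyte and platelet list had 19 of its 24 genes tested, of which 11 rose, 2 fell and 6 did not pass, with a median change of 1.21. Of all genes tested 1.67% rose and 3.26% fell. The mean of the tested members on the log2 scale had an SD of 0.15 among CMP, against 0.63 for the erythroid list. Itga2b, the integrin αIIb (CD41), ranged in MPP from 13.6 through 16.3 to 21.6 FPKM and was at 54.8, 45.9, 44.6, 44.96 and 32.6 FPKM in CMP. All CMP exceeded all MPP, with a rise of 1.35 ± 0.14 (adjusted p = 4.06e-05). Its partner Itgb3 rose by 1.31 ± 0.16. The subunits of the von Willebrand factor receptor rose as well, Gp1ba by 1.35 ± 0.16, Gp9 by 1.21 ± 0.14 and Gp5 by 1.79 ± 0.24, and Vwf itself by 1.56 ± 0.17 to 14.8 ± 3.05 FPKM. Treml1, a receptor of platelet granules, went from at most 0.42 FPKM in MPP to 5.25, 4.55, 6.37, 3.10 and 3.70 FPKM in CMP. F2r, a thrombin receptor, rose by 1.64 ± 0.11 from 12.995 ± 1.64 to 42.7 ± 5.59 FPKM. In all 11 fits that left out 1 sample, 11 of the list rose.

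Among the members that fell was Thbs1, thrombospondin 1, which changed by -1.50 ± 0.36 and was at most 0.90 FPKM in CMP.

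**Figure D2:**
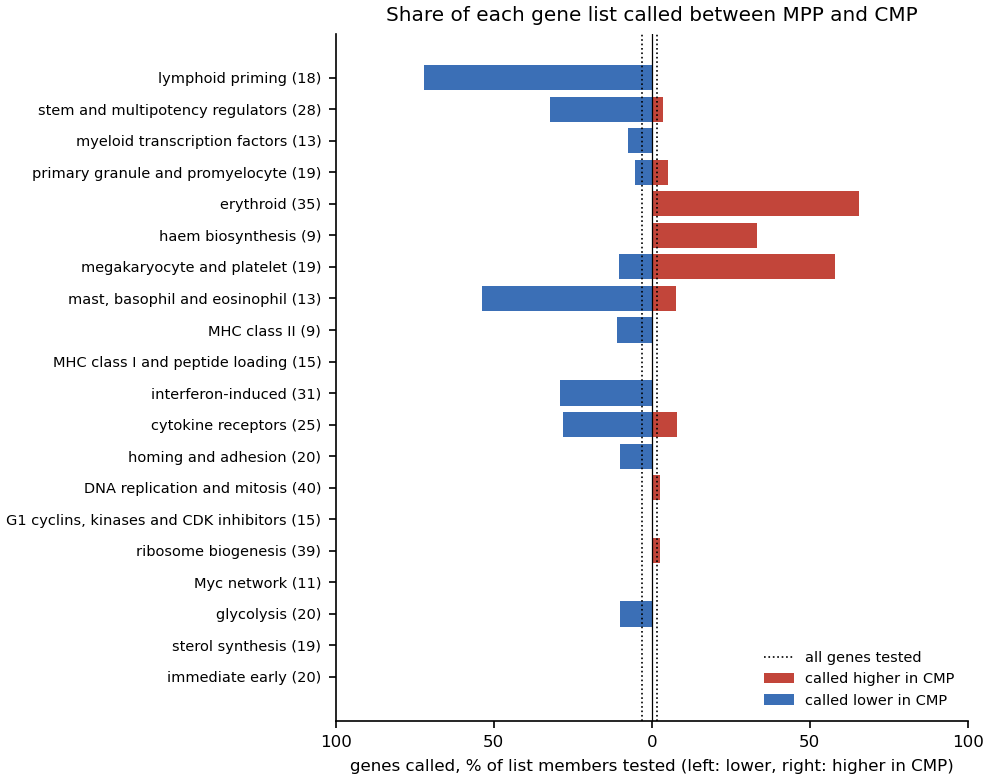
Share of the tested members of each gene list that were called lower in CMP (blue, to the left) or higher in CMP (red, to the right), with the number of members tested in parentheses and dotted lines at the shares of all genes tested (3.26% and 1.67%). The erythroid (23 of 35) and megakaryocyte (11 of 19) lists extend to the right, and the lymphoid priming (13 of 18), mast, basophil and eosinophil (7 of 13) and stem (9 of 28) lists to the left.

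The other named rises were outside the lists. Gm15915 went from 2.49 to 61.1 FPKM in the mean (3.97 ± 0.42), Atp1b2, a β subunit of the sodium pump, from 3.19 to 64.8 (3.71 ± 0.46), and Ces2g, a carboxylesterase, from 4.01 to 61.2 (3.49 ± 0.56). Tspo2, a relative of the translocator protein that is known from erythroid cells, rose by 3.21 ± 0.41, and 1190007F08Rik and Samd14 by 2.81 ± 0.47 and 2.64 ± 0.20. Of the named falls outside the lists, Myl10, a myosin light chain, was at a mean of 11.6 FPKM in MPP and 0.152 in CMP (-3.34 ± 0.25), Gm5111 at 15.6 and 1.15, Expi at 8.84 and 0.356, and Lax1, an adaptor of lymphocyte signalling, at 10.4 and 0.790.

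The upstream windows of Epor and Pklr are shown because both genes rose and their windows hold the letters to which GATA factors bind, and that of Epor also those of KLF1. Pklr, the pyruvate kinase of red cells, rose by 2.73 ± 0.52 from at most 2.07 FPKM in MPP to 5.18, 2.92, 16.9, 13.3 and 42.0 FPKM in CMP. Each window is the 250 bases before the annotated gene start in NCBIM37, the Ensembl name of mm9, 5′ to 3′ on the strand of the gene. Capitals mark AGATAA or its reverse complement TTATCT, and in Epor also CCCCACCC, a match to CCNCACCC.
Epor (chr9:21768021-21768270, minus strand): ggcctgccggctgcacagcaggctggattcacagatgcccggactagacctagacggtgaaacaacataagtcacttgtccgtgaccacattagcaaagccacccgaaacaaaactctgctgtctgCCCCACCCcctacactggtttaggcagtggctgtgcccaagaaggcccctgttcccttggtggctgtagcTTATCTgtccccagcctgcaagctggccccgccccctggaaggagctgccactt
Pklr (chr3:88939814-88940063, plus strand): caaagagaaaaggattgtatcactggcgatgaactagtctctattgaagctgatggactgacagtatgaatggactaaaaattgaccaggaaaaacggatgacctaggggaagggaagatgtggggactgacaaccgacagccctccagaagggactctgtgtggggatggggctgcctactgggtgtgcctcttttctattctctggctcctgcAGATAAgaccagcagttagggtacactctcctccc
In Epor the GATA letters lie 54 to 49 bases before the start and the KLF1 letters 124 to 117 bases before it, and in Pklr the GATA letters lie 35 to 30 bases before. Over both strands, 23 of 203 windows of genes called higher (11.3%) held AGATAA, beside 31 of 363 for genes called lower (8.54%) and 805 of 11788 for all genes tested (6.83%). CCNCACCC was in 14.8% of windows of genes called higher, 19.8% of those called lower and 16.0% of all. A match is a description of these letters in this window and no more.

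The shares for the other motifs searched, both strands, were as follows. GAGGAAGT, a PU.1 site, was in 6.06% of windows of genes called lower, 3.45% of those called higher and 2.55% of all. TTGCNNAA, a C/EBP site, was in 13.2%, 8.37% and 7.85% in the same order, CAGGTG, an E protein site, in 19.8%, 14.8% and 14.9%, and TGTGGT, a RUNX site, in 16.0%, 14.3% and 11.6%.

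Genes of lymphoid priming, the low expression of lymphoid genes in cells that are not yet committed, fell from MPP to CMP. Of 22 on the list 18 were tested, and 13 fell, against 3.26% of all genes, while 5 did not pass and none rose. The median change was -1.21, and 11 to 14 of the list fell in fits that left out 1 sample. Dntt, the terminal transferase that adds bases to antigen receptor joints (chr19:41103765-41134013), ranged in MPP from 236 through 268 to 308 FPKM. In CMP replicates 1 to 5 it was at 23.6, 20.01, 54.7, 33.9 and 25.9 FPKM, with no overlap and a change of -3.13 ± 0.20 (adjusted p = 1.43e-06). Flt3, the cytokine receptor that marks lymphoid-primed MPP, had MPP values of 77.8, 81.4 and 92.0 FPKM (lowest, median and highest) and CMP values of 32.1, 32.0, 32.8, 28.8 and 15.2 FPKM. It fell by 1.57 on the log2 scale with a standard error of 0.17 (adjusted p = 4.25e-05). These MPP levels were tight: the mean of the list on the log2 scale lay between 5.09 and 5.22 in the 6 MPP and between 3.68 and 4.17 in the CMP.

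Other members of the list covered receptors, recombination and signalling. Il7r, the interleukin 7 receptor, was at 6.00 ± 2.33 FPKM in MPP and 1.24 ± 0.464 in CMP, and Rag2, a subunit of the recombinase, at 8.05 ± 1.18 and 2.53 ± 0.977. Both fell with no overlap, by -1.59 ± 0.24 and -1.39 ± 0.18. Rag1 was below the filter, at a mean of 0.96 FPKM in MPP and 0.224 in CMP. Notch1 changed by -1.06 ± 0.20, under the fold threshold without CMP replicate 5 (-0.94) or MPP replicate 5 (-0.93), the chemokine receptors Ccr9 and Ccr7 by -1.55 ± 0.22 and -1.06 ± 0.17, and Ltb, lymphotoxin β, by -1.49 ± 0.17. The GTPases Gimap6 and Gimap1, known from lymphocytes, changed by -2.24 ± 0.17 and -1.71 ± 0.16, and Il12a, which encodes a cytokine subunit, by -1.31 ± 0.16. Cd27 was at 208 ± 17.2 FPKM in MPP and 106 ± 28.5 in CMP, a change of -1.003 ± 0.16 that sits at the threshold and was under it without CMP replicate 4 or 5 or MPP replicate 4, 5 or 6 (-0.99 to -0.83). Lck, a kinase of T cell receptor signalling from the T and NK cell markers, ranged in MPP from 8.80 through 10.1 to 11.5 FPKM and was at most 3.06 FPKM in CMP (-1.93 ± 0.15). Cd3d, Cd3e, Cd3g and Cd2 had means of at most 0.18 FPKM in both groups. Ikzf1, a factor that both lymphoid and myeloid progenitors use, was at 154 ± 9.48 and 172 ± 30.3 FPKM and did not pass.

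Genes known from stem and multipotent cells fell in part. Of 29 on the list 28 were tested, of which 9 fell, 1 rose (Gata2) and 18 did not pass, with a median change of -0.69. Of all genes tested 3.26% fell. In fits that left out 1 sample, 6 to 10 of the list fell. By adjusted p alone 16 passed as lower, against 11.2% of all genes tested. Hlf, a leucine zipper factor of stem cells (chr11:90197849-90252231), ranged in MPP from 85.5 through 133 to 179 FPKM and was at 21.1, 19.3, 24.9, 25.99 and 10.8 FPKM in CMP. All CMP lay below all MPP, a change of -2.66 ± 0.22 (adjusted p = 6.23e-06). Mecom, the locus of Evi1, had MPP values of 25.6, 31.7 and 50.1 FPKM (lowest, median and highest) against 5.62, 11.9, 9.75, 8.77 and 2.28 FPKM in CMP, a change of -2.17 ± 0.31 (adjusted p = 0.000356). CMP replicate 5, highest for the erythroid factors, was lowest for both genes.

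Procr, the endothelial protein C receptor, and Esam, an adhesion protein, both used as stem cell markers, changed by -2.22 ± 0.21 and -1.34 ± 0.18. The clustered homeobox genes Hoxa9, Hoxa10 and Hoxa5 changed by -1.38 ± 0.14, -1.53 ± 0.17 and -1.02 ± 0.20, Hoxa9 from 22.8 ± 2.76 to 8.21 ± 1.75 FPKM. The ETS factor Erg (-1.01 ± 0.15) and the RNA-binding protein Msi2 (-1.03 ± 0.11) were close to the threshold. Erg was under it without CMP replicate 4 or 5 or MPP replicate 3 or 5 (-0.98 to -0.88), Msi2 without CMP replicate 1 or 5 or MPP replicate 5, by less than 0.01, and Hoxa5 without CMP replicate 3 or 5 or MPP replicate 2, 4 or 5 (-0.999 to -0.86). Meis1, a partner of HOXA9, was at 82.1 ± 15.2 FPKM in MPP and 52.4 ± 11.2 in CMP, with no overlap but a change of -0.65. On the homing and adhesion list 2 of 20 tested genes fell, against 3.26% of all genes tested. From this list Emcn, endomucin, changed by -1.97 ± 0.19 and Robo4, a guidance receptor of stem cells and endothelium, by -1.86 ± 0.16. The endothelial genes Cdh5 and Kdr were below the filter, Cdh5 at a mean of 0.012 FPKM in both groups.

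**Figure D3:**
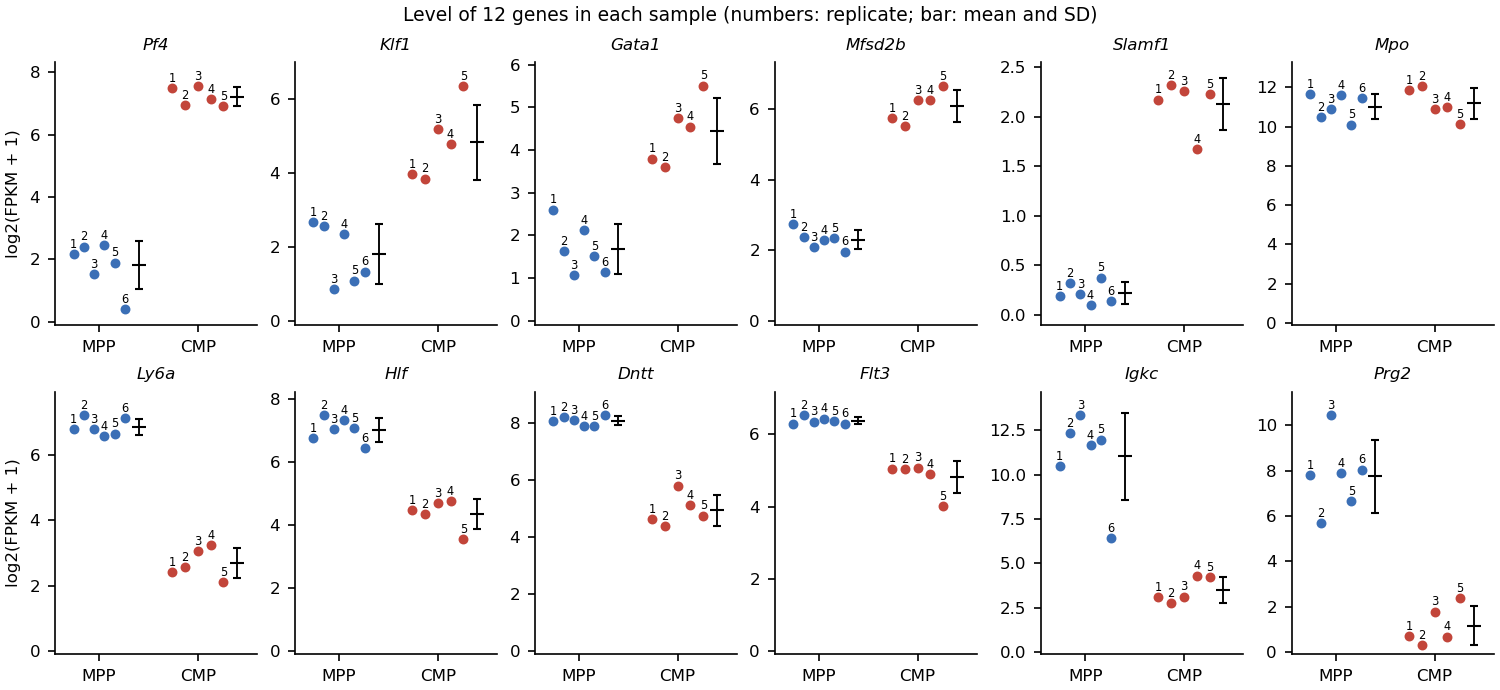
Level of 12 genes in each of the 6 MPP (blue) and 5 CMP (red) samples as log2(FPKM + 1), with the replicate number at each point and the mean and SD as a bar. Groups are separate for 11 genes, overlap for Mpo, and CMP replicate 5 is the highest CMP for Klf1 and Gata1 and the lowest for Flt3 and Hlf.

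Of the 19 tested primary granule genes 17 did not pass, and the median change of the 19 was -0.02. Of all genes tested 4.93% were called in either direction. Mpo, myeloperoxidase, ranged in MPP from 1095 through 2315 to 3178 FPKM and was at 3678, 4292, 1882, 2031 and 1122 FPKM in CMP, a change of 0.16 ± 0.36 that did not pass. CMP replicates 1 and 2, lowest for Klf1 and Car1, were highest for Mpo, and replicate 5 was lowest. Elane (-0.68 ± 0.65), Prtn3 (-0.02 ± 0.34) and Ctsg (0.22 ± 0.41), the serine proteases stored with Mpo in primary granules, did not pass either. The sign for Mpo, Prtn3 and Ctsg turned when single samples were left out. On the list 1 gene rose, Ly86, by 1.47 ± 0.36, and 1 fell, the serine protease Prss57, by 1.02 on the log2 scale. Prss57 shares 42.3% of its 31-base windows with other genes and was under the fold threshold without CMP replicate 4 or 5 or MPP replicate 4 or 6.

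Among 13 tested myeloid transcription factors 1 was called, against 4.93% of all genes tested in either direction. Cebpe, the C/EBP factor of late granulocyte development, was at 4.94 ± 2.39 FPKM in MPP and 0.928 ± 0.447 in CMP, with a change of -1.54 ± 0.29 (adjusted p = 0.00282). Sfpi1, which encodes PU.1, was at 64.8 ± 6.21 and 59.0 ± 19.8 FPKM, and Cebpa at 14.1 ± 2.92 and 11.7 ± 5.65. Irf8, the factor of monocyte and dendritic cell fate, was at 78.8, 96.7, 43.9, 42.7 and 43.9 FPKM in CMP replicates 1 to 5 and between 19.98 and 52.6 in MPP (0.86 ± 0.25, adjusted p = 0.0301, under the fold threshold). The monocyte markers Ccr2 and F13a1 rose by 1.58 ± 0.36 and 1.66 ± 0.41, again with CMP replicates 1 and 2 highest (72.4 and 86.1 FPKM for F13a1). C1qb, a complement gene of macrophages, changed by -1.06 ± 0.30 and lost the call without CMP replicate 2 or 4 or MPP replicate 3 or 4 (-0.98 to -0.90). The summed level of the 12 monocyte and macrophage markers overlapped, from 69.6 to 222 FPKM in MPP and from 102 to 386 in CMP.

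Genes of mast cells, basophils and eosinophils held 4 of the 15 largest falls. Of 18 listed genes 13 were tested, and 7 fell, 1 rose and 5 did not pass, with a median change of -1.98. Of all genes tested 3.26% fell and 1.67% rose. A gene close to 0 in CMP, such as Epx or Prg3, can pass the filter through MPP alone. The count of falls and the median are therefore in part set by the filter. Prg2, the major basic protein of eosinophil granules (chr2:84820618-84823789), ranged in MPP from 50.1 through 231 to 1396 FPKM, while CMP replicates 1 to 5 held 0.62, 0.23, 2.42, 0.59 and 4.21 FPKM. The change was -6.59 ± 0.67 (adjusted p = 2.77e-05), and between -7.01 and -6.05 with any 1 sample left out. Epx, eosinophil peroxidase, lay between 2.43 and 82.7 FPKM in MPP and at most at 0.13 in CMP, and Prg3 between 1.67 and 53.8 and at most at 0.40. Prss34, a mast cell and basophil protease named by its size of change, had MPP values of 23.9, 42.1 and 92.8 FPKM (lowest, median and highest) and CMP values of 1.20, 0.09, 0.06, 0.09 and 0 FPKM, a change of -5.17 ± 0.32 (adjusted p = 1.08e-06). Mcpt8, the basophil protease, changed by -2.13 ± 0.35 and Fcer1a, the α chain of the IgE receptor, by -1.98 ± 0.29.

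MPP replicate 3 held the most of the eosinophil genes, with Ear6 at 117 FPKM against 0.68 to 10.2 in the other MPP and Ear2 at 60.9 against 3.65 to 10.95. Ear6, a ribonuclease of eosinophils, was called here (-2.75 ± 0.83, adjusted p = 0.0322) and in 12 of 23 alternative fits, losing the call without any single CMP replicate or without MPP replicate 6 (adjusted p = 0.0532 to 0.0653). Ear2 shares 59.2% of its 31-base windows with other genes. Cpa3, the mast cell carboxypeptidase, was at 36.8 ± 11.8 and 49.9 ± 14.2 FPKM and did not pass, and Il1rl1, the interleukin 33 receptor, rose by 2.01 ± 0.25. In the neighbouring populations Prg2 averaged 389 FPKM in ST-HSC and 803 in GMP, so that CMP, at 1.61 FPKM, had the lowest mean of the 6 normal groups.

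Immunoglobulin transcripts held 3 of the 15 largest falls. Igkc, the constant region of the κ light chain (chr6:70676429-70676751), ranged in MPP from 83.7 through 3600 to 10316 FPKM and was at 7.67, 5.74, 7.76, 18.9 and 17.8 FPKM in CMP. The groups did not overlap although MPP spanned a wide range, with replicate 6 lowest and replicate 3 highest, and the change of -7.52 ± 0.95 (adjusted p = 0.000144) was the largest fall of all genes tested. Named by the same rule were Iglv1 (-4.66 ± 0.95) and Igj, the joining chain of secreted IgM and IgA (-4.46 ± 0.65). A look at all immunoglobulin symbols, chosen after their values were seen, found 31 tested. Of these, 11 were called lower, against 3.26% of all genes tested, and none higher. The mean was higher in MPP for all 31. A transcript low in CMP can pass the filter through MPP alone, so this shared direction is in part set by the filter. Ighm was at 946 ± 604 FPKM in MPP and 141 ± 45.8 in CMP, and the variable segment Igkv15-103 reached 2416 FPKM in MPP replicate 3 and was listed at 0 in MPP replicate 6.

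Of 7 tested B cell markers 1 fell, Blnk, an adaptor of B cell receptor signalling, by 1.48 on the log2 scale. Of all genes tested 3.26% fell. The B cell marker Ms4a1 was close to 0 in both groups (0.055 and 0.114 FPKM, means of MPP and CMP), and Cd79b was at 22.6 ± 2.86 and 17.7 ± 4.82 FPKM and did not pass. The summed level of the 12 B cell markers was 193 to 295 FPKM in MPP and 220 to 468 in CMP. Of the plasma cell genes, Sdc1 changed by -1.45 ± 0.18 from 4.67 ± 1.31 to 1.06 ± 0.326 FPKM, while Tnfrsf17 (0.633 and 0.064 FPKM) and Prdm1 (0.613 and 0.128) were below the filter. Igkc averaged 1894 FPKM in LT-HSC and 3754 in ST-HSC, which with MPP are the populations sorted as Sca-1+, against 9.95 in GMP and 45.8 in MEP. The part of antibody-secreting cells in these values was not tested.

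Interferon-induced genes fell in part. Of 32 listed genes 31 were tested, of which 9 fell, none rose and 22 did not pass, with a median change of -0.41. Of all genes tested 3.26% fell. In fits that left out 1 sample, 7 to 10 of the list fell. By adjusted p alone 17 passed as lower, against 11.2% of all genes tested. Ifi44 ranged in MPP from 10.7 through 14.8 to 16.6 FPKM and was at 3.89, 2.15, 3.77, 4.51 and 2.69 FPKM in CMP, a change of -1.77 ± 0.16 (adjusted p = 1.40e-05). Oas2 and Oasl2, of the family of oligoadenylate synthetases that sense double-stranded RNA, changed by -1.61 ± 0.19 and -1.62 ± 0.13, both with no overlap. Ifitm1, which restricts the entry of viruses, was at 134 ± 10.4 FPKM in CMP and at 259 to 289 in 5 MPP, with MPP replicate 6 at 595. Isg15, the ubiquitin-like modifier, overlapped between the groups, with MPP at 6.34, 9.26 and 13.4 FPKM (lowest, median and highest) and CMP at 4.82, 4.24, 3.34, 1.02 and 7.14 FPKM. Its change was -1.11 ± 0.29 (adjusted p = 0.0180), and -0.81 without CMP replicate 4, under the fold threshold. Gbp2 (-1.26 ± 0.15) and Gbp6 (-2.91 ± 0.21, among the 15 largest falls) encode guanylate-binding proteins induced by interferon γ.

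The upstream windows of Oas2 and Isg15 are shown for the interferon response letters that they hold, which STAT and IRF factors recognise. Capitals mark GAAA, 2 bases of any kind and GAAA, or the reverse complement of this, and in Isg15 mark 3 overlapping matches.
Oas2 (chr5:121199863-121200112, minus strand): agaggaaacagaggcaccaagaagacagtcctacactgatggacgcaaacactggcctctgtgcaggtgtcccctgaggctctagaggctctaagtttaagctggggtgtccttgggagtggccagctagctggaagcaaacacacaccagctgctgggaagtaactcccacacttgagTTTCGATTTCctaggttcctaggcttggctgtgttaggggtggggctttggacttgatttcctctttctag
Isg15 (chr4:155574928-155575177, minus strand): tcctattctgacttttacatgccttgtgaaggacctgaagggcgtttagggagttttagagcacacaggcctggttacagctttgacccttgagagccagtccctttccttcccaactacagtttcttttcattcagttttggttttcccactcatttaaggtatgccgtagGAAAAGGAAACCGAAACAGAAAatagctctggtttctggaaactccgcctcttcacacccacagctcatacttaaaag
The match in Oas2 lies 71 to 62 bases before the start, and those in Isg15 span bases 78 to 57. Windows of 21 of the 363 genes called lower held the letters (5.79%), beside 5 of 203 genes called higher (2.46%) and 386 of 11788 tested (3.27%).

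Antigen presentation differed less. Of 15 tested genes of MHC class I and peptide loading none reached the fold threshold, and the median change was -0.49. By adjusted p alone 9 passed as lower, against 11.2% of all genes tested. H2-K1 was at 993 ± 71.2 FPKM in MPP and 688 ± 71.5 in CMP with no overlap, and B2m at 3352 ± 250 and 2464 ± 78.3. In MHC class II 1 of 9 tested genes fell, H2-Ob, the chain of a chaperone that restrains peptide loading, at -1.30 ± 0.16. Of all genes tested 3.26% fell. H2-Aa was at 31.8, 26.3, 123, 184 and 113 FPKM in CMP and from 35.5 to 143 in MPP, and Cd74 was likewise lowest in CMP replicates 1 and 2. Neither passed.

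Receptors for cytokines changed in both directions. On a list of 26, which includes the ligand gene Il15, 25 were tested, 7 fell, 2 rose (Epor and Il1rl1) and 16 did not pass. Of all genes tested 3.26% fell and 1.67% rose. Beside Flt3 and Il7r, the falls included those of the interleukin 1 receptor Il1r1 (-1.74 ± 0.15, from 19.5 ± 2.74 to 5.22 ± 1.41 FPKM), Il18r1 (-1.61 ± 0.20), the common γ chain Il2rg (-1.14 ± 0.09) and Csf3r, the receptor for G-CSF (-1.01 ± 0.20). Csf3r was under the fold threshold without CMP replicate 5 (-0.78), MPP replicate 5 (-0.97) or MPP replicate 6 (-0.97). Csf1r, the M-CSF receptor, was at 25.2, 32.5, 11.6, 9.89 and 10.4 FPKM in CMP (0.94 ± 0.31, under the fold threshold).

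On the list of DNA replication and mitosis all 40 genes were tested, with a median change of 0.31 over the 40. By adjusted p alone 12 passed, all of them higher in CMP, against 10.2% of all genes tested. Cyclin E1, Ccne1, alone passed the fold threshold, from 3.30 ± 1.01 to 8.82 ± 5.99 FPKM, and lost the call without CMP replicate 3 or 5 or MPP replicate 2 or 5 (adjusted p = 0.0513 to 0.0590). For ribosome biogenesis 21 of 39 tested genes passed the adjusted p alone, all higher in CMP, against the same 10.2%, and the median change was 0.41. Rrp9 was called at 1.00 ± 0.25. It was under the fold threshold without CMP replicate 3 (0.94), CMP replicate 5 (0.82), MPP replicate 3 (0.92) or MPP replicate 5 (0.86). Cdk6, the kinase of entry into the cycle, was at 172 ± 14.99 FPKM in MPP and 272 ± 25.2 in CMP with no overlap (0.66 ± 0.09). Myc was at 257 ± 24.7 and 268 ± 22.9 FPKM and did not pass, while Mycn was at 10.4 ± 1.81 and 5.82 ± 0.807 (-0.73 ± 0.13, under the fold threshold). In glycolysis 2 of 20 tested genes fell, against 3.26% of all genes tested. Ldhb, a lactate dehydrogenase subunit, changed by -2.10 ± 0.19 from 59.2 ± 12.6 to 13.1 ± 3.53 FPKM, with Ldha at 316 ± 51.2 and 440 ± 58.0, and the brain-type aldolase Aldoc by -1.34 ± 0.13. No gene of sterol synthesis (19 tested), of the Myc network (11), of G1 cyclins and CDK inhibitors (15), of the lineage gate antigens (4) or of the immediate early response (20) was called. By adjusted p alone 3, 2, 3, 1 and 0 of these passed in limma, and 3, 2, 4, 3 and 2 had an unadjusted p under 0.05. Among all 12273 genes tested, 2630 passed the adjusted p alone and 4308 had an unadjusted p under 0.05. Fos spanned 2.21 to 244 FPKM within CMP.

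Markers of other cell types that a sort could hold were summed in each sample. Mature granulocyte markers ranged from 20.3 to 910 FPKM in MPP and from 36.4 to 286 in CMP, and 1 of 10 tested rose, the chemokine receptor Cxcr2, by 1.07 ± 0.20, which was under the fold threshold without CMP replicate 1 (0.94) or MPP replicate 2 (0.995). T and NK cell markers summed to 13.9 to 18.4 FPKM in MPP and 3.72 to 6.51 in CMP, and dendritic cell markers to 195 to 224 and 115 to 134, with no overlap in either case. Of these, 1 of 3 and 2 of 7 tested fell, and 1 dendritic cell marker rose. Lck was the T and NK cell marker that fell, while Cd3d, Cd3e, Cd3g and Cd2 were close to 0 in both groups. Among erythroblast markers 4 of 10 rose, and among stroma and endothelium markers, which summed to 34.7 to 43.9 FPKM in MPP and 23.3 to 38.6 in CMP, 1 of 2 fell. The lowest changes of the dendritic cell and the stroma lists, -1.57 and -1.34, match those given above for Flt3 and Esam. Stem cell markers summed to 133 to 260 FPKM in MPP and 33.8 to 65.9 in CMP, with 5 of 9 lower and 2 higher. Beside all these marker counts, 3.26% of all genes tested fell and 1.67% rose. No marker of these lists was at 0 in all samples of a group, and the part of such cells in the results was not tested.

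**Figure D4:**
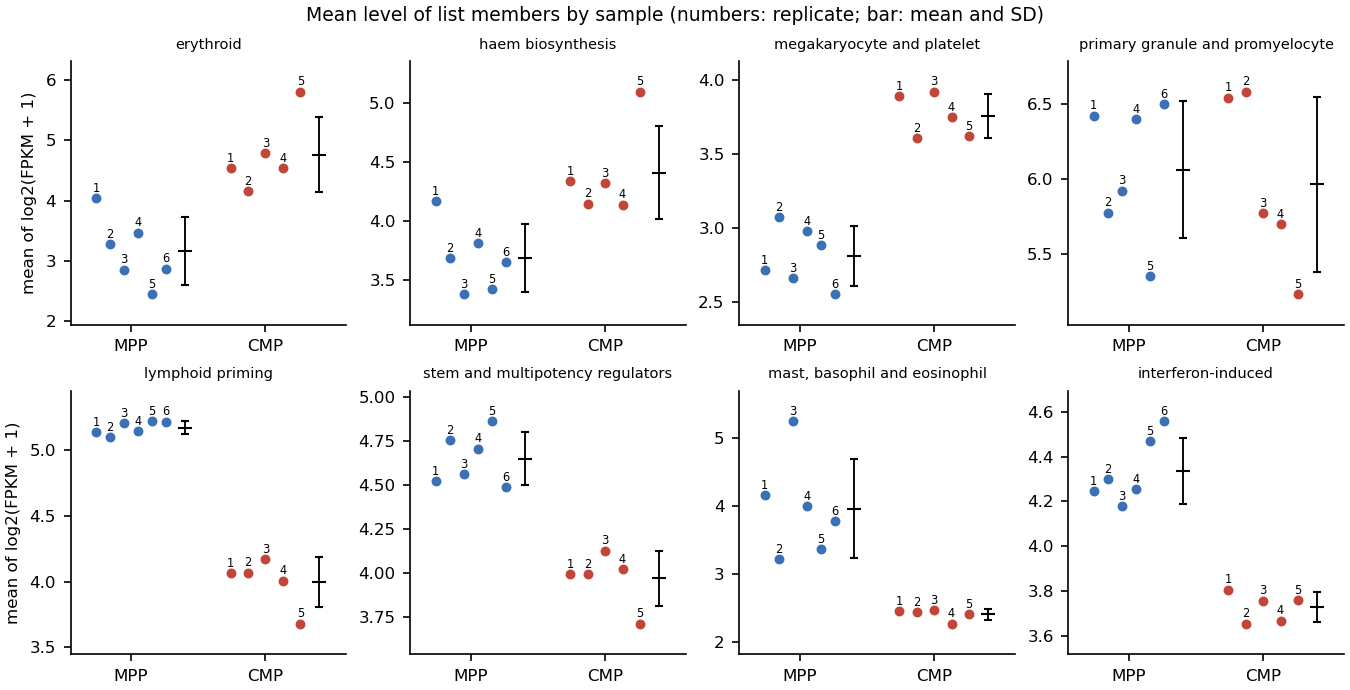
Mean of log2(FPKM + 1) over the tested members of 8 gene lists in each sample, MPP in blue and CMP in red, with replicate numbers and the mean and SD of each group. The groups are separate for all but 2 lists, haem biosynthesis and primary granule genes, and CMP replicate 5 is highest for erythroid genes (5.80) and lowest for primary granule genes (5.23).

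The CMP samples differed among themselves along this pattern. Over the 205 genes called higher the median SD on the log2 scale was 0.70 among CMP and 0.37 among MPP, and the SD was larger in CMP for 168 of them, against 6636 of all 12273. These genes were chosen for being higher in CMP, and the pseudocount of 1 narrows the spread of low values. Part of this difference in SD is therefore set by the choice of genes. CMP replicate 5 was the highest CMP for 154 of the 205 genes (75.1%, against 30.6% of all genes tested), and replicate 2 the lowest for 130 (63.4%, against 20.7%). Among the 400 genes called lower, CMP replicate 5 was the lowest CMP for 202 (50.5%, against 24.7%), and the median SD was 0.32 in CMP and 0.31 in MPP. The mean of the erythroid list in CMP replicates 1 to 5 was 4.53, 4.15, 4.78, 4.54 and 5.80, and that of the primary granule list was 6.54, 6.58, 5.77, 5.70 and 5.23. Replicate 2 was thus lowest for erythroid and highest for granule genes, and replicate 5 the reverse. With CMP replicate 5 left out, 152 genes were called higher and 332 lower, and 467 of the 605 calls remained. Mitochondrial genes took the smallest share in that library, and the part of library composition in the spread was not tested.

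The other normal populations place these genes, as a description with no test. Of the 205 genes called higher in CMP, 140 had their highest mean of the 6 groups in MEP (68.3%, against 25.8% of all genes tested), and in 181 the MEP mean was above the GMP mean (88.3%, against 54.0%). None of the 205 had its highest mean in MPP, which the call itself sets, beside 21.6% of all genes tested. The gap between 68.3% and 25.8% is therefore in part set by the choice of genes. Of the 400 called lower, the MEP mean was above the GMP mean in 195 (48.8%). Klf1 averaged 119 FPKM in MEP and 0.532 in GMP, Car1 2818 and 7.502, and Epor 54.7 and 0.204. Mpo averaged 12761 FPKM in GMP and 20.8 in MEP. The megakaryocyte genes had another order: Pf4 averaged 169 FPKM in LT-HSC, 467 in ST-HSC, 2.88 in MPP, 151 in CMP, 18.7 in GMP and 17.1 in MEP, so that MPP was lowest. Vwf went from 51.3 FPKM in LT-HSC through 29.99 in ST-HSC to 4.39 in MPP and 14.8 in CMP, and Itga2b was at 30.2, 74.5, 16.9 and 44.6 FPKM in the same order. Klf1 was also lower in MPP than in either stem cell group, at 29.0 FPKM in LT-HSC and 9.02 in ST-HSC, where the erythroblast markers summed to 80412 FPKM in 1 LT-HSC sample and 43313 in 1 ST-HSC sample. Dntt was at 1.73 FPKM in LT-HSC, 34.2 in ST-HSC, 269 in MPP and 31.6 in CMP, and Flt3 at 1.93, 14.1, 82.7 and 28.2, which made MPP the highest of all 6 groups for both genes.

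**Figure D5:**
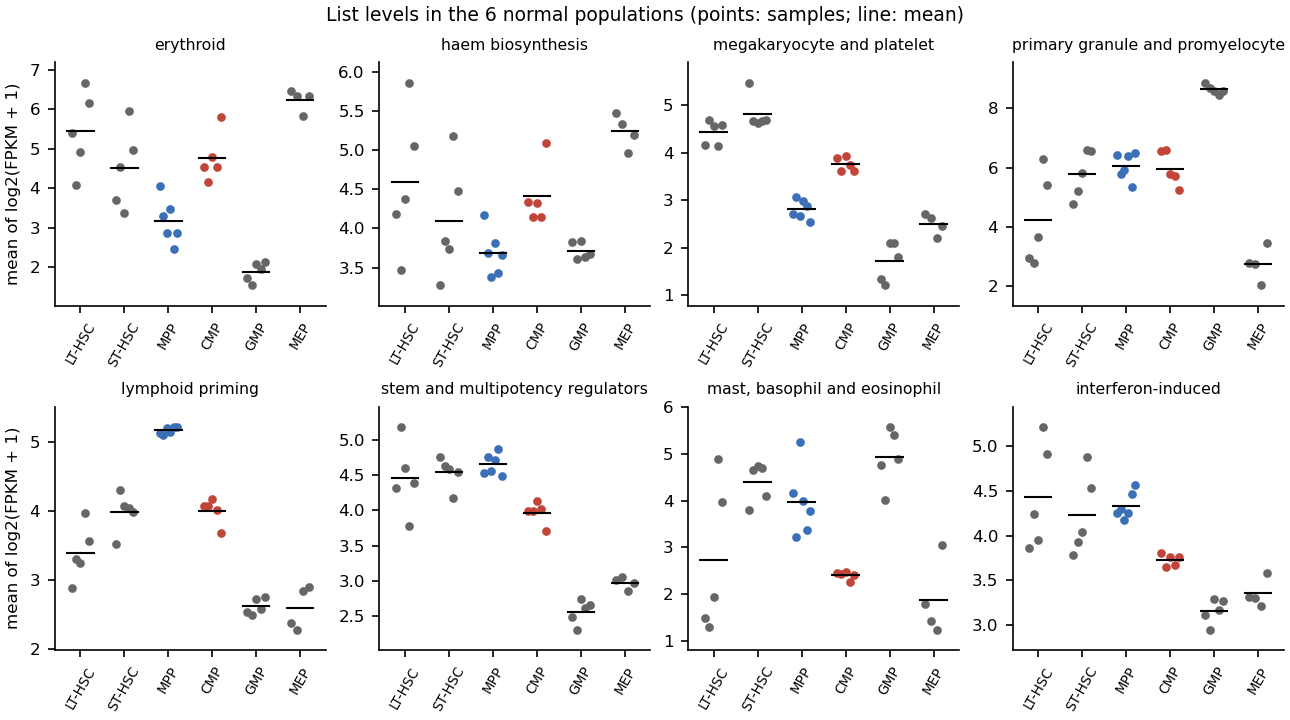
Mean of log2(FPKM + 1) over 8 gene lists in each sample of the 6 normal populations, with a line at the group mean, MPP in blue and CMP in red. Megakaryocyte genes are lower in MPP (mean 2.81) than in ST-HSC (4.82) and CMP (3.76), lymphoid priming genes are highest in MPP (5.17), and erythroid genes are highest in MEP (6.25).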

How the data were processed

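RNA of sorted normal bone marrow cells had been amplified (NuGEN Ovation), sheared and sequenced by the authors, and the deposited values are FPKM per Ensembl gene from RSEM, rounded to 2 decimals. The submitters' processing notes name the mm9 build. No read counts were used here, and the authors' edgeR test on counts was not repeated. Amplification from few cells can distort levels of single genes. Groups and replicate numbers came from the sample labels. Values of some list members are not reported here. Of 68 columns 49 matched a sample and 19 were not used. Symbols and 1-based positions for 33068 of 38253 genes came from GENCODE M1 on NCBIM37 (mm9), and older list symbols were matched through RefSeq synonyms.

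For each gene whose mean over the 11 samples reached 1 FPKM, log2(FPKM + 1) was tested two-sided with limma (3.58.1, in R 4.3.3), moderating variances by eBayes with trend, and p was adjusted by Benjamini-Hochberg over all 12273 genes. The rule for calls was an adjusted p under 0.05 and a change beyond 1 log2 unit. Genes named are the 15 largest rises and 15 largest falls among called genes with a symbol and no overlap of groups, members of 30 gene lists, and others said to be chosen after their values were seen. The members and lists were chosen with earlier results of these data known. In simulated data, 198 of 200 genes changed by 2 log2 units were recovered among 12273, with 3 false calls, and 0 were called when none was changed. The changed genes were drawn from those with a mean log2(FPKM + 1) above 2, and the noise was normal and independent. These figures therefore do not cover genes near 1 FPKM or deviations that many genes of a sample share. Total reads are unknown, so no counting interval was given: depth ratios came from the spacing of low FPKM values, which are multiples of 1 read (98.2% of 55 sample pairs within 0.05 log2). Sequence shared with other genes is the percent of 31-base windows of the exons. Upstream windows are 250 bases. Python 3.11.15, numpy 2.4.6, pandas 2.3.3 and matplotlib 3.10.9 were used for other steps.

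Alternatives were median-ratio scaling, testing genes below 1 FPKM as well, 0.1 in place of 1 as pseudocount, all 30 normal samples in the fit, the replicate number as a block, a GC content and length correction without and with that block, robust or trend-free empirical Bayes, no fold threshold and leaving out each sample. Chosen after seeing the data were leaving out MPP replicate 3 and CMP replicate 5 together and scaling outside mitochondrial genes.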

Additional observations from a re-analysis of the deposited data

Results flagged for a closer look

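In 308 groups of values, 20 held a sample far from the others of its group by Dixon's test, and chance flags about 1 in 20 groups. In MPP replicate 3 Epx (82.74 FPKM) and Ear2 (60.91 FPKM) were far above the other MPP and Gm15915 (0.42 FPKM) far below. In MPP replicate 5 Notch1 was high (34.58 FPKM), and Elane (42.72 FPKM), Ldha (222.32 FPKM) and Expi (4.34 FPKM) were low. In MPP replicate 6 Ifitm1 was high (594.95 FPKM), and Emcn was low (7.36 FPKM), as was Igkv15-103 (listed at 0). Oasl2 was low in MPP replicate 1 (31.1 FPKM) and Gbp6 high in MPP replicate 2 (21.29 FPKM).

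Among the CMP, replicate 5 was far below the others for Flt3 (15.15 FPKM) and Csf3r (17.23 FPKM), and above them for Epb4.2 (7.83 FPKM), Epx (0.13 FPKM), Ear6 (0.23 FPKM) and the summed FPKM of all genes (864176). The values of Epx and Ear6 in that sample were close to 0. Prss34 was highest in CMP replicate 1 (1.20 FPKM) and Slamf1 lowest in CMP replicate 4 (2.19 FPKM). Flt3 and Slamf1 kept their calls in every fit that left out 1 sample, with changes from -1.63 to -1.37 and from 1.86 to 2.02.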

How the results depend on the processing

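The main count of 605 calls (205 higher, 400 lower) moved by less than 1.5 times under most alternatives. Beyond that, a pseudocount of 0.1 gave 615 genes lower, the replicate block 134 genes higher, and no fold threshold 2630 calls, 1254 higher and 1376 lower. Samples with the same replicate number did not deviate together (correlations from -0.19 to -0.04), so they share only a number. The fit with the replicate block, which cannot use MPP replicate 6, gave 13 of the 35 erythroid genes called, and 489 of the 605 calls remained. It also turned the sign of Prtn3 (0.11), Hbb-b1 (0.12) and Alas2 (0.0044), and with the GC content and length correction that of Prtn3 (0.19) and Hbb-b1 (0.19). That correction without the block turned Prtn3 (0.063). With 1 sample left out, calls ranged from 484 (without CMP replicate 5) to 662 (without CMP replicate 2), with 152 to 237 higher and 332 to 425 lower. Genes that were not called turned sign in those fits, with changes from -0.22 to 0.31 for Alas2, -0.044 to 0.44 for Ctsg, -0.62 to 0.073 for H2-Aa, -0.068 to 0.79 for Hba-a1, -0.52 to 0.28 for Hbb-b1, -0.060 to 0.42 for Mpo, -0.25 to 0.20 for Prtn3, -0.43 to 0.78 for S100a9 and -0.66 to 0.095 for Slc4a1. Without both MPP replicate 3 and CMP replicate 5, Prtn3 (0.13), Myc (-0.00572) and S100a9 (-0.23) turned sign, and 139 genes were higher and 344 lower. The cause was not tested. Of the 150 genes followed under every alternative, none that was called turned sign. Median-ratio scaling moved the median of all genes by -0.042. Without read totals, changes of genes near 1 FPKM are limited by the pseudocount.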
